A study of Mus musculus with 2 samples.

Results

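The miR-29 family was read from the microRNA profile of mouse gastrocnemius, a calf muscle. Its members are the 4 microRNA genes named Mir29a, Mir29b-1, Mir29b-2 and Mir29c in the annotation, out of 2202 microRNA genes counted in the files. They were chosen by name. The tissue came from female B6CASTF1/J mice, which are hybrids between C57BL/6J and CAST/EiJ, at 2 months of age. The labels give no treatment, allele or second condition. The series has 1 group of 2 small RNA libraries, labelled biological replicates 1 and 2 and numbered as separate females, although both carry the same donor code. Whether the libraries come from separate animals thus rests on the labels alone.

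MicroRNAs are short RNAs that pair with messenger RNAs, mainly through a seed near their 5′ end, and lower their translation and stability. The miR-29 family is known for targeting messenger RNAs of the extracellular matrix, among them the fibrillar collagens Col1a1, Col1a2 and Col3a1, elastin (Eln) and fibrillin-1 (Fbn1), and the DNA methyltransferases Dnmt3a and Dnmt3b. TGF-beta signalling lowers the family in fibroblasts. In skeletal muscle it is known from myogenic differentiation and from dystrophic muscle, where low miR-29 accompanies fibrosis.

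The mature sequences are shown first because they set which reads of the family can be told apart. All 4 genes matched RefSeq entries (GRCm38.p6, the assembly also called mm10). Each hairpin carries a 5p and a 3p arm, and the 3p arm is the one known as miR-29. The capitals mark the seed, bases 2 to 8 from the 5′ end.
miR-29a-3p: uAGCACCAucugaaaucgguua
miR-29b-3p: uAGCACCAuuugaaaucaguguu
miR-29c-3p: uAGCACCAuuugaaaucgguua
miR-29a-5p: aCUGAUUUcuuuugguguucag
miR-29b-1-5p: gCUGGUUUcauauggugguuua
miR-29b-2-5p: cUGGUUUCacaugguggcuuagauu
miR-29c-5p: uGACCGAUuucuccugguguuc

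The 3p arms share 1 seed, AGCACCA, and in the table of 1738 mature arms no other microRNA carries it. The seeds of the 5p arms differ from each other, and that of miR-29b-2-5p, UGGUUUC, is also carried by miR-6338. Counted from 1 at the 5′ end, miR-29a-3p differs from miR-29c-3p at a single base, C10U. It differs from miR-29b-3p at C10U, G18A, U21G and A22U, and miR-29b-3p is longer by its last base, with 23 bases against 22. Between miR-29c-3p and miR-29b-3p the differences are G18A, U21G and A22U, so these arms are the same over their first 17 bases.

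Mir29b-1 and Mir29b-2 carry the identical 3p arm. The hairpins are printed with the 3p arm of each in capitals to show what lies around it at each locus.
Mir29a: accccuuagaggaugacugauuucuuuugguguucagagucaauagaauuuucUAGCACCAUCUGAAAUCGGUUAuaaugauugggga
Mir29b-1: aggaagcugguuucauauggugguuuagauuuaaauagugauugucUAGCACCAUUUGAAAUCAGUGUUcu
Mir29b-2: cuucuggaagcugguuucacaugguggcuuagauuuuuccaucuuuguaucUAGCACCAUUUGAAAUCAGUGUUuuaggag
Mir29c: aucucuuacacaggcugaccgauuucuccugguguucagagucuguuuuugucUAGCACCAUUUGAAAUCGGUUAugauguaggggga

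The longest stretch that the hairpins of Mir29b-1 and Mir29b-2 have in common is 25 bases, ucUAGCACCAUUUGAAAUCAGUGUU, and holds the whole 3p arm. Each hairpin was cut into windows of 20 bases, and each window was looked up on both strands in the table of 1005 hairpins, leaving out the hairpin itself. None of the 69 windows of Mir29a was found elsewhere. For Mir29c it was 3 of 69, all of them starting before the 3p arm, in a stretch of 22 bases shared with Mir29b-1. For Mir29b-1 it was 9 of 52 and for Mir29b-2 6 of 62, and these include all 4 windows within the 3p arm of each. The windows within the 5p arms were unique in all 4 genes. The lookup covered annotated hairpins and not the whole genome.

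**Figure D1:**
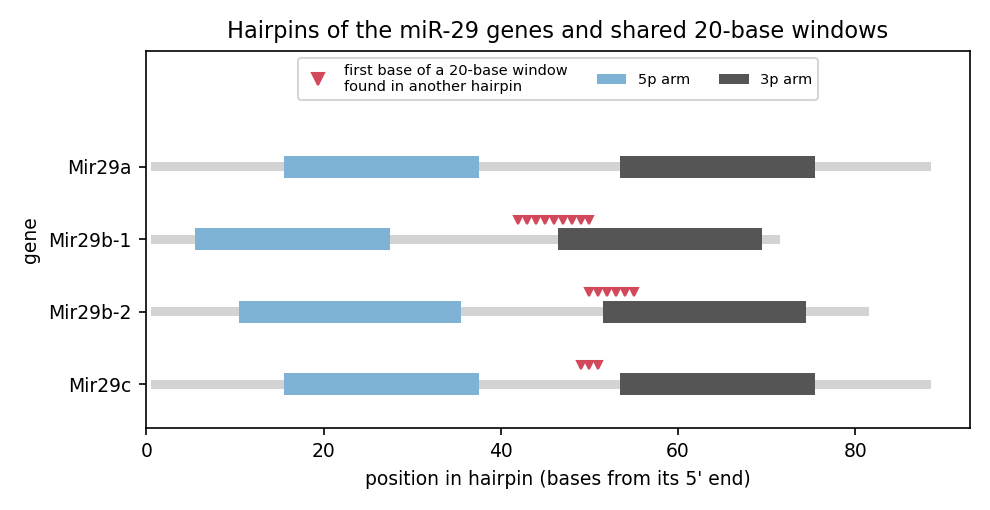
Hairpins of the 4 miR-29 genes, with the position in bases from the 5′ end on the x axis and the genes on the y axis; bars mark the 5p and 3p arms, and triangles mark the first base of each 20-base window that occurs in another microRNA hairpin. Mir29a has no such window, Mir29c has 3, and in Mir29b-1 (9) and Mir29b-2 (6) they cover the whole 3p arm.

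The genes lie as neighbouring pairs on 2 chromosomes, each with a miR-29b gene. Mir29a (ENSMUSG00000065610.1) lies at chr6:31062660-31062747 on the minus strand of mm10 in no other annotated gene. Mir29b-1 (ENSMUSG00000065604.2) lies on the same strand at chr6:31063023-31063093, with 275 bases between them, and overlaps an exon of the long noncoding gene Gm27019 in part. Mir29b-2 (ENSMUSG00000065412.3) lies at chr1:195037040-195037120 and Mir29c (ENSMUSG00000065548.1) at chr1:195037547-195037634, both on the plus strand, with 426 bases between them. Both are within exons of the noncoding transcript A330023F24Rik on their own strand and opposite an annotated exon of Cd46, which encodes a complement regulator.

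The libraries held 1950204 counts on the own strand of microRNA genes in replicate 1 and 2291821 in replicate 2, and levels are given as CPM, counts scaled to these totals and put on the usual common base, in which 1 count was worth 0.513 and 0.436. Of the reads listed, 70.1% and 72.3% aligned to several places and are counted in no gene. A gene is called detected where both libraries gave it 10 counts or more, which held for 278 genes and for all 4 miR-29 genes. No count lay on the strand opposite to any of the 4 genes, where a count of 0 allows up to 3 counts, or 1.54 and 1.31 CPM. Of the microRNAs that mark the tissue, those of striated muscle were present, with 9 of 10 detected and Mir206, a skeletal muscle microRNA, at 26708 and 41933 CPM. No listed marker was at 0 in both libraries.

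The family held 21897 counts in replicate 1 and 23493 in replicate 2. Its share of all microRNA counts was 1.12% in replicate 1, with an exact 95% interval (Clopper-Pearson) from 1.11 to 1.14, and 1.03% in replicate 2, with an interval from 1.01 to 1.04. The mean share was 1.07% ± 0.0691 (SD, n = 2). Because reads were amplified, these intervals describe counting error and nothing else. Nearly all of the family's counts came from Mir29a and Mir29c, and both miR-29b genes were low in both libraries. Reads of miR-29b-3p placed at both of its loci are in no gene, so the miR-29b counts can leave out reads of this arm.

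Mir29a, whose 3p arm alone in the family has C at base 10 (C10U), was the highest member. It had 17215 counts in replicate 1 and 18175 in replicate 2, or 8827 CPM (95% interval 8696 to 8960) and 7930 CPM (7816 to 8046). The level was similar in both libraries and ranked 21st of the detected genes in each. Its mean was 8379 ± 634 CPM (SD, n = 2), and its share of the family's counts was 78.6% and 77.4%.

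Mir29c, the second member by level, had 4622 and 5213 counts. These are 2370 CPM in replicate 1 (2302 to 2439) and 2275 CPM in replicate 2 (2213 to 2337), and the mean was 2322 ± 67.5 (SD, n = 2). Their spread, 2.90% of the mean, was the smallest of the 4 members, against 7.57% for Mir29a. Mir29c took 21.1% and 22.2% of the family's counts and ranked 40th among detected genes by its mean.

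Mir29b-1, the neighbour of Mir29a, had 41 and 66 counts. These are 21.02 CPM in replicate 1 (15.1 to 28.5) and 28.8 CPM in replicate 2 (22.3 to 36.6), and the mean was 24.9 ± 5.50 (SD, n = 2). The higher value was in replicate 2, and the counting intervals of the libraries overlapped.

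Mir29b-2, the neighbour of Mir29c, was the lowest member, with 19 and 39 counts. These are 9.74 CPM in replicate 1 (5.87 to 15.2) and 17.02 CPM in replicate 2 (12.1 to 23.3), and the mean was 13.4 ± 5.14 (SD, n = 2). Here too replicate 2 was higher and the intervals overlapped. Mir29b-1 and Mir29b-2 ranked 222nd and 242nd of 278 by mean CPM, far below the other members, and their joint share of the family was 0.274% in replicate 1 (0.209 to 0.353) and 0.447% in replicate 2 (0.366 to 0.541).

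**Figure D2:**
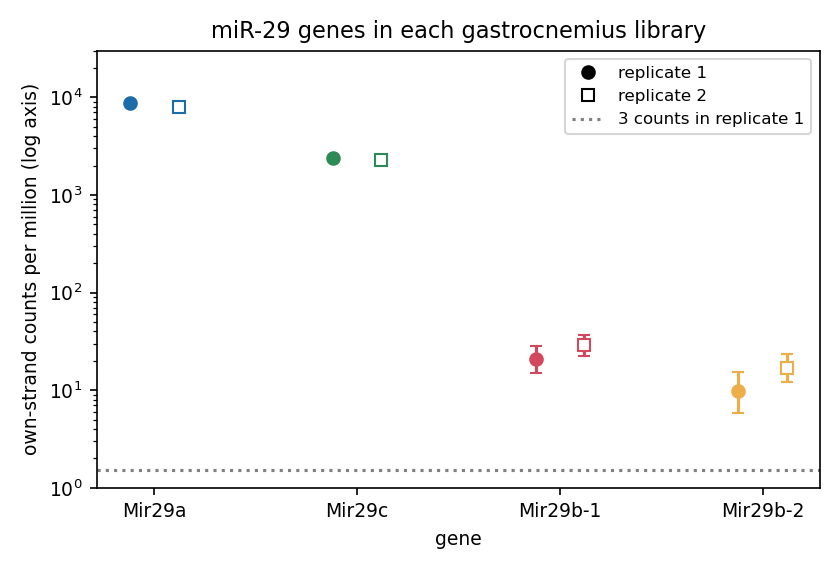
Own-strand CPM of each miR-29 gene on a log axis, with filled circles for replicate 1, open squares for replicate 2, exact 95% counting intervals as bars and the level of 3 counts in replicate 1 as a dotted line. Mir29a (8827 and 7930) and Mir29c (2370 and 2275) lie far above Mir29b-1 (21.02 and 28.8) and Mir29b-2 (9.74 and 17.02), and the order is the same in both libraries. Reads placed at both miR-29b loci are left out.

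The order Mir29a, Mir29c, Mir29b-1, Mir29b-2 held in each library. It was also the order of CPM per 100 bases of annotated gene, on which Mir29b-1 had 29.6 and 40.6 and Mir29b-2 12.03 and 21.01. Counts of Mir29a were 3.72 times those of Mir29c in replicate 1 (3.61 to 3.85) and 3.49 times in replicate 2 (3.38 to 3.60). Mir29c stood 113 times above Mir29b-1 in replicate 1 (83.0 to 157) and 79.0 times above it in replicate 2 (62.0 to 102). None of the 20-base windows within the 3p arm of Mir29b-1 was unique, and all of those of Mir29c were. This step thus compares unlike sets of reads and is not a ratio of mature microRNAs. The smallest step was between the miR-29b genes. Mir29b-1 had 2.16 times the counts of Mir29b-2 in replicate 1 (1.22 to 3.94, two-sided exact binomial p = 0.00622) and 1.69 times in replicate 2 (1.12 to 2.58, p = 0.0108). The mean levels of these genes differed by more than the SD of either, and the binomial tests cover counting error within each library.

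Within each pair of neighbours the miR-29b gene held under 1 in 100 of the counts. These counts leave out reads of miR-29b-3p placed at both of its loci, while the 3p arms of Mir29a and Mir29c are unique. Mir29b-1 took 0.238% of the chromosome 6 pair in replicate 1 (0.171 to 0.322) and 0.362% in replicate 2 (0.280 to 0.460), with a mean of 0.300% ± 0.0878 (SD, n = 2). Mir29b-2 took 0.409% of the chromosome 1 pair in replicate 1 (0.247 to 0.639) and 0.743% in replicate 2 (0.529 to 1.01), with a mean of 0.576% ± 0.236 (SD, n = 2). Both shares were higher in replicate 2, with p = 0.0334 and 0.0343 in two-sided Fisher's exact tests, or 0.0343 for each when adjusted over the 2 pairs. Adjusted over the 5 pairs of members compared in all, both became 0.0572 and missed 0.05. The ratio of Mir29a to Mir29c was 1.07 times higher in replicate 1 (1.02 to 1.12), with an exact Fisher p of 0.00391, or 0.0195 over the 5 pairs. These tests set the 2 libraries against counting error and not against the spread between animals.

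Other microRNAs also have a mature arm with more than 1 source, and the miR-29b genes were placed beside them. Of 954 genes with RefSeq arms, 54 had 1 of their 2 arms found whole in another hairpin, and 28 of these were detected. Only the 1005 RefSeq hairpins were searched, and 234 of the 278 detected genes matched one. No shared arm thus means that none was found among these hairpins. The 28 detected genes with a shared arm had a median of mean levels of 118 CPM, against 148 CPM for the 199 detected genes with no shared arm. Mir29b-1 was 24th and Mir29b-2 26th in level among the 28, near the low end of that group. The 5 highest were Mirlet7f-2, Mir196a-2, Mir16-1, Mir128-1 and Mir181b-2, of which Mirlet7f-2, a let-7 gene, had 4684 and 5287 CPM. Mir196a-2, from a Hox cluster, had 1247 and 1680 CPM. Mir16-1, of the miR-15 family, had 1570 and 1106 CPM. A mean above 1000 CPM was reached by 3 of the 28, against 47 of the 199 with no shared arm. Of 36 genes with all of their arms shared, 5 were detected, with a median of 72.7 CPM, and 0 of these were above 1000 CPM. The medians leave out genes that missed detection. Reads of miR-29b-3p that were placed at both loci would be in no gene, and how many there were was not tested.

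**Figure D3:**
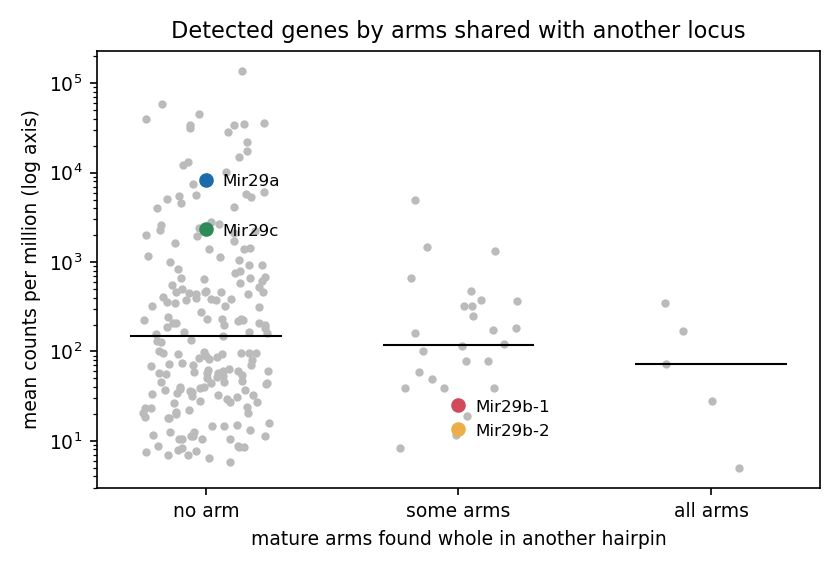
Mean CPM of the libraries on a log axis for detected genes with no, some or all of their mature arms found whole in another microRNA hairpin; each point is a gene, coloured points are the miR-29 genes and lines are the medians. Mir29a and Mir29c stand above the median of 148 in the group with no shared arm, and Mir29b-1 and Mir29b-2 stand below the median of 118 in theirs.

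The libraries were compared gene by gene, with a gene called at 2-fold or more and an adjusted p under 0.05 in a two-sided exact binomial test. That test called 0 of the 4 miR-29 genes, beside 11.9% of the 278 detected genes, and the edgeR exact test with the estimated coefficient of variation of 0.352 between libraries also called 0, beside 2.52%. With an assumed coefficient of 0.2 it called 0, beside 7.91%. The coefficient of 0.352 came from the same 2 libraries that were compared, so the test that used it is not independent of their difference. Without the minimum of 2-fold 1 of the 4 passed, namely Mir29a, where 55.4% of all detected genes passed. At an unadjusted exact binomial p under 0.05, Mir29a and Mir29b-2 passed, beside 58.6% of the detected genes.

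On TMM-scaled library sizes the log2 ratio of Mir29a, replicate 2 over replicate 1, was −0.12 (SE 0.015, counting error), a ratio of 0.920 with an exact 95% interval of 0.901 to 0.940 and an adjusted exact binomial p of 2.27e-14. With 0.352 as coefficient of variation the edgeR adjusted p was 1.0. The difference is thus larger than counting error. The coefficient of 0.352 was estimated from these same 2 libraries, so that test cannot show how the difference compares with a spread between animals.

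Mir29c had a log2 ratio of −0.02 (SE 0.029, adjusted exact p = 0.489), and only 6 of the 278 detected genes had a ratio closer to 0. Its sign turned to positive with DESeq2 size factors. The interval of the ratio, 0.945 to 1.02, leaves room for a difference of a few percent.

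Mir29b-1 was at 0.48 (SE 0.285, adjusted exact p = 0.154), a ratio of 1.40 with an interval of 0.936 to 2.13. Mir29b-2 was at 0.82 (SE 0.399, adjusted exact p = 0.0633), a ratio of 1.77 with an interval of 1.01 to 3.28. Their few counts leave wide intervals, and a 2-fold difference was inside both. The members' median log2 ratio was 0.23 and 2 of 4 were higher in replicate 2, beside a median of −0.03 over all detected genes, of which 48.9% were higher.

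**Figure D4:**
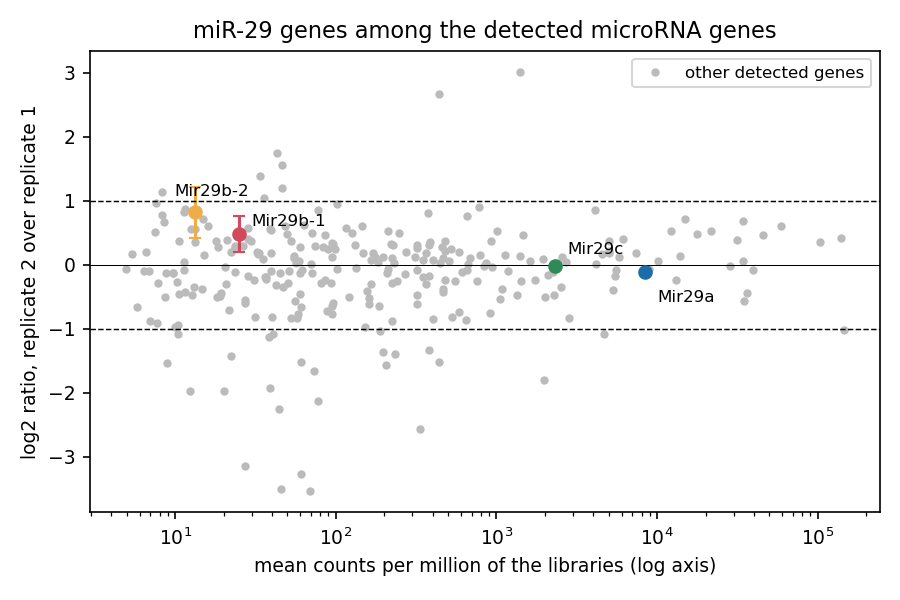
Log2 ratio of replicate 2 over replicate 1 on TMM-scaled sizes against mean CPM on a log axis; grey points are the other detected genes, coloured points are the miR-29 genes with SE of counting error as bars, and dashed lines mark 2-fold. All 4 members lie between the dashed lines, with Mir29a (−0.12) and Mir29c (−0.02) near 0 and Mir29b-1 (0.48) and Mir29b-2 (0.82) above it.

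Shares of counts at most groups of cell type markers differed between the libraries. The smooth muscle microRNAs Mir143 and Mir145a, both detected, took 20.3% of counts in replicate 1 and 9.73% in replicate 2. The endothelial Mir126a took 12.1% and 15.7%, and the 10 striated muscle microRNAs 2.79% and 4.66%. Of the striated muscle sum, Mir206 alone had 26708 of 27946 CPM in replicate 1 and 41933 of 46569 CPM in replicate 2. Mir1a-1 and Mir1a-2 of this list are both miR-1 genes, and Mir133a-1 and Mir133a-2 are both miR-133a genes. Reads placed at both genes of such a pair are left out, so the sum is not a level of the mature microRNAs. The 4 fibroblast microRNAs, of which 3 were detected, took 0.149% and 0.151%. All arms of Mir199b and Mir199a-2 among them are shared with another hairpin, so reads placed at several loci are left out. As sums, leukocyte (0.315% and 0.246%) and red cell markers (0.0787% and 0.0460%) were lower in replicate 2. The single glial marker, Mir338 (0.307% and 0.0855%), and the single liver marker, Mir122 (0.0110% and 0.00109%), were also lower in replicate 2. Of the leukocyte markers, Mir142 and Mir223 were lower there, Mir155 was higher (1082 and 1169 CPM) and Mir150 was nearly level (859 and 857 CPM). The edgeR exact test with the estimated coefficient of variation called 2 striated muscle markers and 1 liver marker. It called 0 of the smooth muscle, endothelial, fibroblast, leukocyte, red cell and glial markers. The striated muscle markers it called were Mir499 (315 and 2497 CPM) and Mir208b (122 and 761 CPM), both higher in replicate 2. The part of these cell types in the values of the miR-29 genes was not tested, and in whole tissue fewer cells of a type and less RNA per cell cannot be told apart.

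Genes nearest in level were named by a rule. Next to Mir29a stood Mir27b (10184 ± 96.0 CPM) and Mir100 (8863 ± 463) above, and Mir322 (7412 ± 546) and Mir139 (6091 ± 1097) below (SD, n = 2 each). Mir100 was above Mir29a in each library, at 9190 and 8536 CPM, and their means differed by less than the SD of Mir29a. Next to Mir29c stood Mir15a, Mir744, Mir130a and Mir27a, from 2514 to 2256 CPM. The values of Mir29c lay inside the range of Mir15a, Mir130a and Mir27a in at least 1 library, while Mir744, at 2415 and 2392 CPM, was above it in both. The neighbours of Mir29b-1 were Mir31, Mir298, Mir3061 and Mir3058, from 27.2 to 23.4 CPM, and those of Mir29b-2 were Mir1198, Mir668, Mir1a-1 and Mir3107, from 14.8 to 13.2 CPM. Mir1a-1, a gene of the muscle microRNA miR-1, had 13.3 ± 2.15 CPM (SD, n = 2), beside 13.4 for Mir29b-2. This is the level of reads placed at that gene alone and not the level of miR-1. Mir1a-2, another miR-1 gene, had 176 and 247 CPM, and reads aligned to several places are in neither gene.

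Likeness of pattern could be measured only as the difference of log2 ratios over the 2 libraries, among genes of at least 100 CPM. Nearest to Mir29a were Mir27a, Mir25 and Mir106b, within 0.0095 of its ratio. Nearest to Mir29c were Mir20a, Mir320 and Mir23b, within 0.011. Nearest to Mir29b-1 were Mir10b, Mir500 and Mir30c-2, within 0.012, and to Mir29b-2 Mir423, Mir149 and Mir128-1, within 0.056. With 2 libraries this likeness rests on a single ratio per gene.

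Other microRNAs known from fibrosis were taken from a list. Among 9 reported to promote fibrosis, 8 were detected, and the list held 4.42% and 3.25% of counts. Of these 1 was called, Mir199b, which is known from fibroblasts and was lower in replicate 2, from 111 to 34.03 CPM (log2 ratio −1.67, adjusted exact p = 2.99e-20), but did not pass in edgeR with the estimated coefficient of variation. Without the fold minimum 3 were higher (Mir214, Mir192, Mir503) and 3 lower (Mir21a, Mir34a, Mir199b), where 24.8% and 30.6% of all detected genes were. The median log2 ratio was −0.04, beside −0.03 over all detected genes. Mir21a, an abundant microRNA that rises in many fibrotic tissues, was the highest of the list at 42024 and 30322 CPM, above Mir29a in both libraries. Mir214, which shares a transcript with a miR-199 gene, had 1349 and 1453 CPM, a level below Mir29c and far above the miR-29b genes. Mir34a had 403 and 321 CPM, and Mir433 219 and 230 CPM. Mir199a-2 had 59 and 60 counts, and Mir199a-1 missed detection with 2 counts in each library. All mature arms of Mir199b and Mir199a-2 were found whole in another hairpin. Their counts, and the call of Mir199b, thus leave out reads placed at several loci.

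Among 11 reported to restrain fibrosis, 7 were detected, and the list held 0.346% and 0.375% of counts, less than the miR-29 genes together. These shares hold only reads placed at a single gene. Mir26a-1 and Mir26a-2 of the list share the arm miR-26a-5p, and Mir133a-1 and Mir133a-2 are both miR-133a genes. The comparison is thus not one of mature microRNA levels. The exact binomial test and the edgeR exact test called 0 of the 7, where the first called 11.9% of all detected genes. An unadjusted exact p under 0.05 was found for 5 of the 7, beside 58.6% of all. Without the fold minimum 4 were higher, namely Mir101a, Mir101b, Mir26a-1 and Mir133a-1, beside 24.8% of all. The median log2 ratio was 0.16. Mir101b was the highest, at 2495 and 2644 CPM, close to Mir29c. Mir101a had 421 and 500 CPM, Mir26a-1 288 and 349 CPM, and Mir26a-2 170 and 182 CPM. Mir133a-1, a gene of muscle miR-133a, had 38.5 and 57.6 CPM, and Mir133a-2 had 10 and 13 counts. Reads placed at both of these genes are in neither, so these values are not the level of miR-133a. Mir200c, an epithelial microRNA, had 27 and 16 counts. Its relatives missed detection, with 21 and 1 counts for Mir429, 15 and 0 for Mir200a, 9 and 0 for Mir200b and 6 and 0 for Mir141. All of these epithelial genes were lower in replicate 2 in counts, and none was tested except Mir200c (adjusted exact p = 0.0788).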

How the data were processed

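Small RNA of under 30 nt was sequenced from 2 gastrocnemius libraries. The deposited values are raw counts per microRNA gene of GENCODE M21 on mm10, per the notes deposited by the authors, for either strand, the own strand and the opposite strand. Aligner and counter: not given in the sources used here. Rows that name no gene (unmapped 7.48% and 9.83%, aligned to several places 70.1% and 72.3%, outside genes 1.73% and 1.90% of reads listed) enter neither library sizes nor tests.

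CPM was taken over all own-strand gene counts. Detection needed 10 counts in each library. Shares have exact Clopper-Pearson 95% intervals. The libraries were compared with a two-sided conditional exact binomial test on TMM-scaled sizes (edgeR 4.0.16), Benjamini-Hochberg adjusted over 278 detected genes, with a 2-fold minimum and a prior of 0.5 counts. With 1 group, no quasi-likelihood contrast could be fitted. In simulated libraries with counting noise only, 275 genes were tested and the test called 1 of 188 unchanged genes, 32 of 35 with a 2.5-fold change, and all with a 4-fold (24) or 8-fold (28) change.

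All 2202 gene identifiers matched GENCODE M21. Sequences are from RefSeq (GRCm38.p6), where 968 of 2201 gene symbols and 234 of the 278 detected genes matched a hairpin. Named genes are the members, their 2 neighbours in level on each side, the 3 nearest in ratio, the fibrosis list and the 5 highest genes with 1 shared arm. The members and lists were chosen with earlier results of these data known. Replicates came as labelled, and p-values between them measure only these libraries. Alternatives changed the strand, denominator, scaling, count and fold minimum, coefficient of variation (assumed 0.2 or estimated) and libraries used. CPM per 100 bases of gene was added after seeing the data. Software was Python 3.11.15 (scipy 1.17.1, numpy 2.4.6, matplotlib 3.10.9, pandas 2.3.3) and, beside edgeR, DESeq2 1.42.0 in R 4.3.3.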

Additional observations from a re-analysis of the deposited data

Results flagged for a closer look

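Reads that aligned to several places, which are outside the gene counts used here, made up 70.07% of the reads listed in replicate 1 and 72.33% in replicate 2. They number 6593896 and 10399139, against 60 and 105 counts at Mir29b-1 and Mir29b-2 together. The files do not say to which microRNAs they belong.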

How the results depend on the processing

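On counts of either strand the mean family share was 1.47% in place of 1.07%, and the mean levels were 11447 CPM for Mir29a, 3177 for Mir29c, 34.3 for Mir29b-1 and 18.5 for Mir29b-2. The members' own counts are the same there and the library total is smaller, with 1485632 and 1607502 counts. Why the total is smaller was not tested. Over all reads listed the family share was 0.198%. Without the fold minimum 1 of the 4 members was called, in place of 0, and 154 of all genes, in place of 33. With the estimated coefficient of variation 7 of all genes were called, and with a minimum of 50 counts 18, where Mir29b-1 and Mir29b-2 were not tested. The log2 ratio of Mir29c was 0.0038 with DESeq2 size factors in place of −0.02, a change of sign within counting error. With 2 libraries, leaving out a replicate only returns the family share of the other, 1.03% or 1.12%, and is no further check. Of the alternatives that leave out no library, 45 kept direction and side of the threshold or stayed within 1 SD. The others were 7 that moved past 1 SD or in the number of calls, 1 that changed sign and 1 that passed the threshold. Some of the 45 could not change. The members' shares of the family and of their pairs use the same counts on either strand, and dropping the fold minimum leaves a log2 ratio as it was. No paired analysis was possible because there is 1 group. The depth limits the miR-29b genes most, with 19 to 66 counts per library.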
